A study of Mus musculus with 6 samples.

Results

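The Max network is a family of helix-loop-helix leucine zipper transcription factors built around Max. Its 10 genes described here are Myc, Mycn, Mycl, Max, Mxd1, Mxd3, Mxd4, Mxi1, Mnt and Mlx, chosen by gene name from the 55471 gene identifiers of the deposited expression table. Each name matched 1 identifier. Transcripts were measured by total RNA sequencing of haematopoietic stem cells sorted from mice by surface markers (Lin-, Kit+ and Sca1+, without CD48 and with CD150). All 6 libraries carry the genotype label ETV6-RUNX1, the fusion gene of a common childhood B-cell precursor leukaemia. The 3 induced libraries came from mice fed doxycycline for 2 weeks to switch the fusion on, and the 3 uninduced libraries from mice of the same genotype with no treatment in their labels. Age, strain background, the promoter that drives the fusion and the number of mice per library are not given in the sources used here. Effects of the fusion and of the drug cannot be told apart, because a doxycycline-fed group lacking the fusion was not analysed here. The members were proposed with this induced against uninduced comparison known, so their values are a description and carry no test.

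Myc proteins bind the DNA sequence called the E-box only as dimers with Max, and there they recruit histone acetyltransferases and drive ribosome production, biosynthesis and cell division. The Mxd proteins (Mxi1 is the member also called Mxd2) and Mnt compete for Max and recruit the Sin3 histone deacetylase corepressor, so they oppose Myc at the same sites. Mlx is a Max-like partner that pairs with some Mxd proteins, with Mnt and with the glucose-sensing Mlxip and Mlxipl proteins. In blood-forming tissue Myc and Mycn act together to keep stem cells able to survive, to divide and to leave the niche.

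Values are TPM (a transcript's share of its library), which are corrected for gene length, so that levels of different genes can be compared. TPM keeps no read depth, so depth is unknown and no counting interval can be given. Changes are differences of log2(TPM + 1), induced minus uninduced, with the standard error (SE) from limma, fitted to the 13470 genes that averaged 1 TPM or more. This scale understates changes of low genes. Nothing in the labels says that libraries of a group came from separate mice, so p-values measure only the spread between these samples. Nuclear protein-coding genes held 26.6 to 32.9% of the TPM in uninduced and 20.5 to 23.2% in induced libraries, and the median change of all tested genes was -0.35. After median-of-ratios scaling, which removes that offset, the median was -0.0029, and members' changes and list medians are given on that scale too. In bulk samples fewer cells of a type and less RNA per cell cannot be told apart. The 9 stem cell marker genes fixed for a check of the label were all detected. They summed to 471 to 610 TPM in uninduced and 624 to 696 TPM in induced libraries. At a limma adjusted p under 0.05 on unscaled TPM, 4 were higher and 1 lower in induced cells. Among all tested genes 1.29% were higher and 10.2% lower. The 8 lymphoid markers summed to 1.9 to 9.25 TPM in uninduced and 0 to 1.25 TPM in induced libraries, and Cd79a, Cd3e, Il7r, Dntt and Ebf1 among them were listed at 0 in all libraries.

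Mycn was the most abundant network transcript of uninduced stem cells and the one that differed most between the groups. Mycn (ENSMUSG00000037169, chromosome 12: 12936093 to 12941914, minus strand, GRCm38) encodes N-Myc, which is known from neural and haematopoietic progenitors and from neuroblastoma. It stood at 120.5, 160.2 and 138 TPM in uninduced replicates 1 to 3 and at 8.38, 13.7 and 14.4 TPM in induced replicates 1 to 3. Every uninduced library lay far above every induced one. The mean of 139.5 ± 19.9 TPM (SD, n = 3) was 11.4 times the induced mean of 12.2 ± 3.32 TPM (SD, n = 3), a log2 change of -3.44 (SE 0.24), and -3.05 after median-of-ratios scaling. Among the 13470 tested genes, 5 had a lower log2 change. In rank, 473 genes had a higher mean TPM than Mycn in uninduced cells, and 4864 did in induced cells.

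The Mycn promoter is shown because Mycn had the largest change. It comes from the RefSeq promoter table (GRCm38.p6), which matched 9 of the 10 members, and Myc has no entry. The stretch ends before the first base of the annotated gene. Capitals mark TTGGCGC, a form of the site of the E2F cell cycle factors; TTCCCGC was searched too, both on either strand, and these letters were chosen after the sequences had been seen.
Mycn promoter, chr12:12941915-12942086, minus strand: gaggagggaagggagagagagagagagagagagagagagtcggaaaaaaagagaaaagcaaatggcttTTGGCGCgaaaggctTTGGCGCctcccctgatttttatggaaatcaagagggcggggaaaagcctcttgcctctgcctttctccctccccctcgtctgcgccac
The 2 matches start 182 and 167 bases before the RefSeq start. Among 8483 tested protein-coding genes with an entry, 12.0% held a match to either form within 250 bases before a start.

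Myc was also lower in every induced library, but by less. Myc (ENSMUSG00000022346, chromosome 15: 61985391 to 61990374, plus strand, GRCm38) encodes c-Myc, the founding member of the family. Its levels were 52.4, 74.7 and 52.1 TPM in uninduced and 15.4, 18.03 and 31.8 TPM in induced libraries. The groups did not overlap, and induced replicate 3 held the highest of the 3 induced levels. The uninduced mean of 59.8 ± 12.9 TPM (SD, n = 3) was 2.75 times the induced mean of 21.7 ± 8.79 TPM (SD, n = 3), a log2 change of -1.46 (SE 0.28), and -1.08 after median-of-ratios scaling. Mycl (ENSMUSG00000028654, chromosome 4: 122995652 to 123002485, plus strand), which encodes L-Myc, was listed at 0 in all 6 libraries. Some broadly expressed genes, such as Ranbp1, were listed at 0 in all libraries too, so a 0 is given here only as listed.

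The make-up of the Myc family therefore differed between the groups. Mycn supplied 69.7, 68.2 and 72.6% of the summed Myc, Mycn and Mycl TPM in the uninduced libraries, and 35.2, 43.3 and 31.3% in the induced libraries. The ratio of Mycn to Myc TPM was 2.30, 2.14 and 2.64 without induction and 0.544, 0.762 and 0.455 with it. Mycn exceeded Myc in each uninduced library and Myc exceeded Mycn in each induced one. The summed Myc family level averaged 199 ± 32 TPM (SD, n = 3) without induction and 33.9 ± 11.4 TPM (SD, n = 3) with it.

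**Figure D1:**
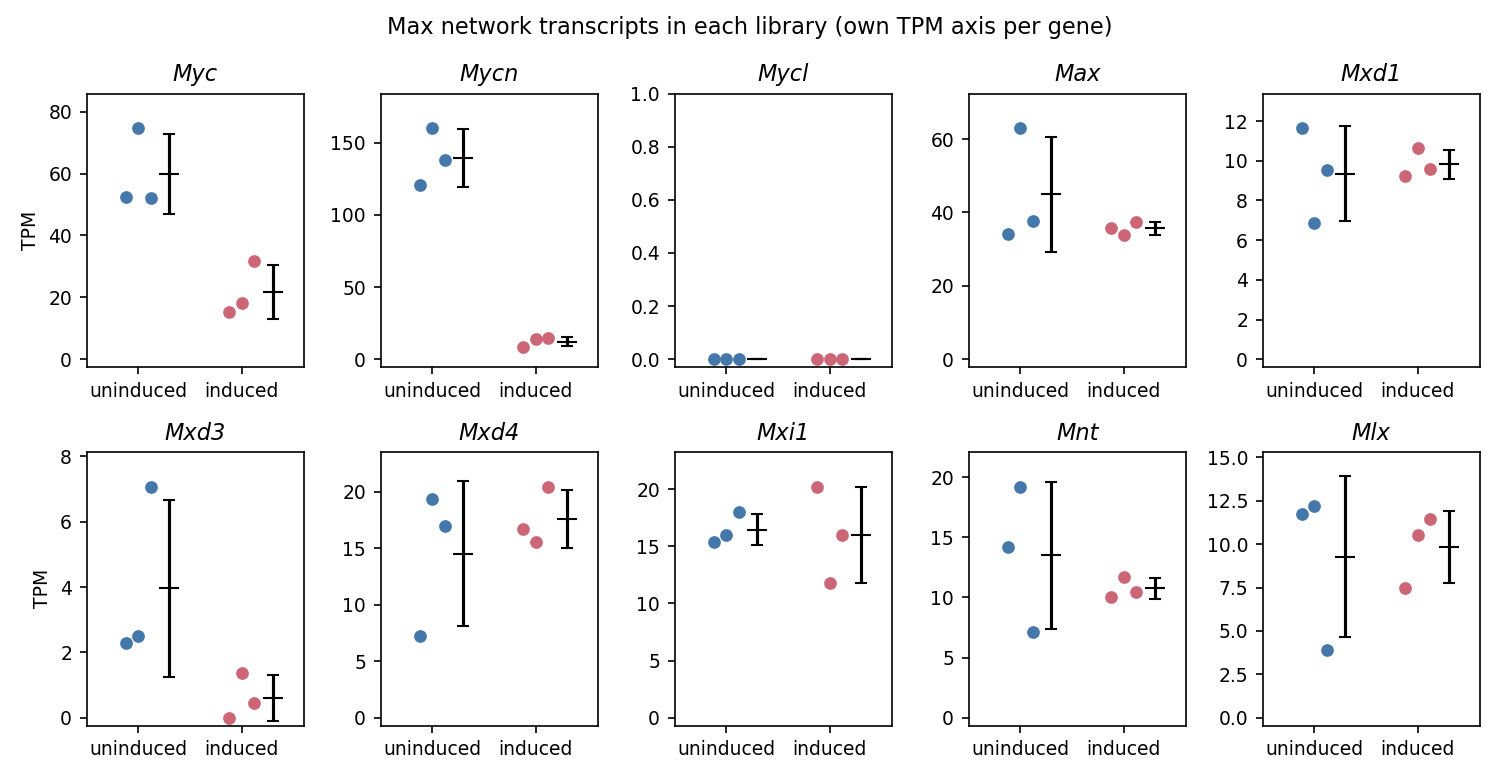
Level of each network gene in TPM (vertical axis, a separate linear scale per gene) in the 3 uninduced (blue) and 3 induced (red) libraries; points are libraries in the order of replicates 1 to 3, and the bar beside them is the mean ± SD. Mycn, Myc and Mxd3 are lower in every induced library than in any uninduced one, Mycl is listed at 0 throughout, and the groups overlap for the other 6 genes.

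Max, the obligate partner of Myc, overlapped between the groups. Max (ENSMUSG00000059436, chromosome 12: 76937269 to 76962201, minus strand) stood at 34.1, 63 and 37.7 TPM in uninduced and 35.7, 33.8 and 37.5 TPM in induced libraries. Uninduced replicate 2 was the high one, and the other 5 libraries lay between 33.8 and 37.7 TPM. The log2 change was -0.27 (SE 0.25). It was 0.12 after median-of-ratios scaling, so its sign depends on the scale, and it was -0.0076 without uninduced replicate 2. Max was the most abundant member in each induced library. Summed Myc family TPM per Max TPM was 5.08, 3.73 and 5.04 in uninduced and 0.667, 0.939 and 1.23 in induced libraries.

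Among the antagonists, Mxd3 was the one whose groups did not overlap, at low levels. Mxd3 (ENSMUSG00000021485, chromosome 13: 55325168 to 55329823, minus strand) is known as the Mxd member found in dividing cells, with a peak in S phase, while the others are linked to cell cycle exit and differentiation. It stood at 2.30, 2.50 and 7.07 TPM in uninduced and 0, 1.38 and 0.443 TPM in induced libraries. Uninduced replicate 3 was well above the other two, and all induced levels were below all uninduced ones. The log2 change was -1.59 (SE 0.52). It was -3.04 with a pseudocount of 0.1 and -0.64 with a pseudocount of 5, so its size rests on the pseudocount, and -1.36 after median-of-ratios scaling. Mxd3 passed the minimum of 1 TPM through its uninduced level, since its induced mean was 0.607 TPM. It shares 105 bases with Prelid1 on the opposite strand (29.8 and 24.5 TPM on average in uninduced and induced cells), and whether counting used strand is not given in the sources used here.

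The Mxd3 promoter is shown with the same search. Since Mycn and Mxd3 were picked by their changes and the letters after the sequences were seen, nothing is read from the matches. Capitals mark the reverse complement of TTCCCGC, which starts 136 bases before the RefSeq start.
Mxd3 promoter, chr13:55329824-55329981, minus strand: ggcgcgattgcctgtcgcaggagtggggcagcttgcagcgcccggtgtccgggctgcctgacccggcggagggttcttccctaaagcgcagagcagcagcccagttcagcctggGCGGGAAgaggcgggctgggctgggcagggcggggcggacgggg

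The other 4 antagonists overlapped between the groups. Mxd4 (ENSMUSG00000037235, chromosome 5: 34173883 to 34187720, minus strand), known from differentiated and resting cells, stood at 7.24, 19.4 and 16.9 TPM in uninduced and 16.7, 15.6 and 20.5 TPM in induced libraries. Uninduced replicate 1 was the low one, and the log2 change was 0.35 (SE 0.35), or -0.052 without that library. Mxi1 (ENSMUSG00000025025, chromosome 19: 53310518 to 53375810, plus strand) stood at 15.4, 15.9 and 18 TPM in uninduced and 20.2, 11.8 and 16 TPM in induced libraries, with the induced values spread on both sides of the uninduced ones. Its log2 change was -0.064 (SE 0.26), or 0.13 without induced replicate 2 and -0.24 without induced replicate 1.

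Mxd1 (ENSMUSG00000001156, chromosome 6: 86647042 to 86669161, minus strand), a Max partner known from myeloid differentiation, stood at 11.6, 6.85 and 9.54 TPM in uninduced and 9.25, 10.6 and 9.57 TPM in induced libraries. All 3 induced values lay within the uninduced range, and the log2 change was 0.089 (SE 0.28), or 0.25 without uninduced replicate 1 and -0.096 without uninduced replicate 2. Mnt (ENSMUSG00000000282, chromosome 11: 74830920 to 74845725, plus strand), the most widely expressed antagonist, stood at 14.2, 19.2 and 7.10 TPM in uninduced and 10.04, 11.7 and 10.5 TPM in induced libraries. The uninduced libraries again enclosed the induced ones, and the log2 change was -0.21 (SE 0.34), or -0.58 without uninduced replicate 3 and 0.081 without uninduced replicate 2. On the median-of-ratios scale the changes of Mxd4, Mxi1, Mxd1 and Mnt were 0.73, 0.31, 0.45 and 0.16, so Mxi1 and Mnt turned sign.

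Mlx (ENSMUSG00000017801, chromosome 11: 101087277 to 101092207, plus strand) stood at 11.7, 12.2 and 3.91 TPM in uninduced and 7.49, 10.5 and 11.4 TPM in induced libraries. Uninduced replicate 3 was below the other 5 libraries, and without it the log2 change of 0.19 (SE 0.40) became -0.28. On the median-of-ratios scale it was 0.55. Mlx shares 385 bases with Psmc3ip on the opposite strand, a recombination gene that was at 18.2 TPM in uninduced and 2.95 TPM in induced cells on average.

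The E-box CACGTG, the binding site of the network itself, reads the same on both strands. It was found in the 250 bases before the start of Mxd4, Mnt and Mlx, members whose groups overlapped. No window of Max, Mxd1 or Mxi1, whose groups overlapped too, held the E-box. Nor did those of Mycn, Mycl and Mxd3. The E-box was present in 10.1% of the same 8483 genes. The stretches around it are shown for comparison, with the E-box in capitals.
Mxd4, chr5:34187894-34187959, minus strand: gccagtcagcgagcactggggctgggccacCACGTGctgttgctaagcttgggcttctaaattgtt
Mnt, chr11:74830771-74830836, plus strand: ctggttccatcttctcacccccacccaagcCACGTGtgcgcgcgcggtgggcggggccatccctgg
Mlx, chr11:101087220-101087276, plus strand: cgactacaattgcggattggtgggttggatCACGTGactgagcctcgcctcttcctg
The Runx core TGTGGT, searched on both strands because RUNX1 is a parent of the fusion, was found in none of the 11 promoter windows of the 9 members with an entry. It was present in 12.6% of the tested protein-coding genes. A match is a description of these letters, and their absence says nothing about binding elsewhere.

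The order of the levels showed the same rearrangement. In uninduced cells Mycn stood alone at the top, followed by Myc and Max, whose ranges overlapped each other and lay above Mxi1. From Mxi1 through Mxd4, Mnt, Mxd1 and Mlx to Mxd3, each gene overlapped the next in range over libraries. In induced cells Max stood alone at the top. Below it Myc, Mxd4, Mxi1, Mycn, Mnt, Mlx and Mxd1 each overlapped the next, and Mxd3 lay below all of these.

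**Figure D2:**
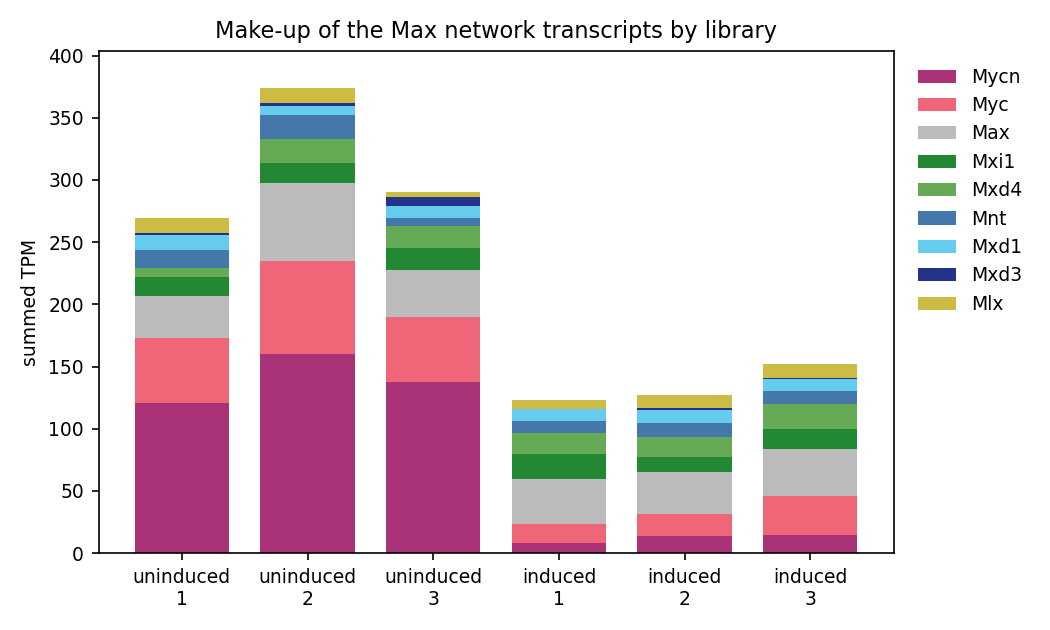
Stacked TPM of the 9 detected network genes (vertical axis, summed TPM) in each of the 6 libraries. The Mycn and Myc segments together hold 173 to 235 TPM in uninduced and 23.8 to 46.2 TPM in induced libraries, while the 5 antagonists together hold 50.8 to 63.9 and 51.1 to 57 TPM.

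Summed antagonist TPM (Mxd1, Mxd3, Mxd4, Mxi1 and Mnt) averaged 57.8 ± 6.60 TPM (SD, n = 3) without induction and 54.7 ± 3.19 TPM (SD, n = 3) with it. Myc family TPM per antagonist TPM was 3.41, 3.68 and 3.24 in the uninduced libraries and 0.423, 0.622 and 0.811 in the induced libraries. Myc family transcripts outnumbered antagonist transcripts in each uninduced library, and the reverse held in each induced library. The mean ratio was 3.44 ± 0.220 (SD, n = 3) and 0.619 ± 0.194 (SD, n = 3). A ratio within a library does not depend on the scaling between libraries. It shows unequal change, not that either sum stayed the same. Antagonist TPM per Max TPM was 1.35 ± 0.296 (SD, n = 3) and 1.54 ± 0.0353 (SD, n = 3), and the groups overlapped, since uninduced replicate 3 (1.56) lay above induced replicates 2 and 3 (1.51 and 1.52).

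**Figure D3:**
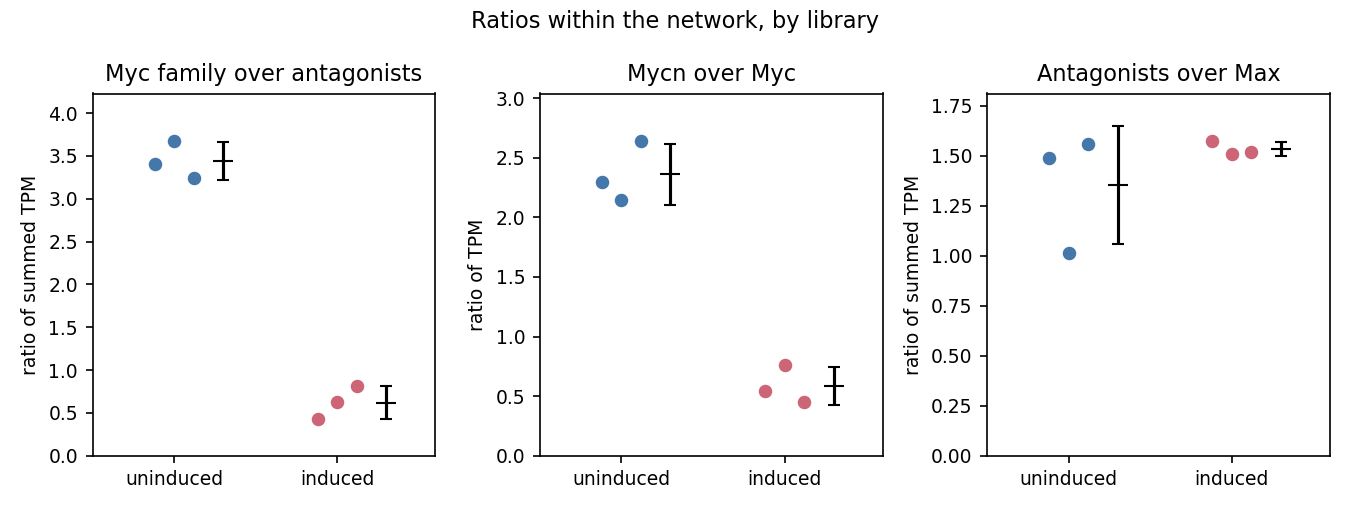
Ratios of TPM within each library (vertical axes, linear from 0) for uninduced (blue) and induced (red) libraries; the bar is the mean ± SD of 3 libraries. The ratio of Myc family to antagonist TPM is 3.24 to 3.68 without induction and 0.423 to 0.811 with it, and Mycn over Myc is 2.14 to 2.64 and 0.455 to 0.762, while antagonists over Max overlap.

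Of the 10 members, 9 reached the expression filter, and 2 of these, both lower, were among the genes with a limma adjusted p under 0.05 (Benjamini-Hochberg over all tested genes). Among all tested genes 11.5% passed this threshold, 10.2% lower and 1.29% higher. The members' count was also 2 after median-of-ratios scaling, where 6.04% of genes passed. It was 1 without the expression filter, and without uninduced replicate 2, induced replicate 1 or induced replicate 2. In each of these fits Mycn passed and Myc did not. Groups did not overlap for 3 of the 10 members, all lower, where 33.1% of tested genes had groups that did not overlap, 28.2% lower and 4.83% higher. Since the members were proposed with this comparison known, these counts are no test of them and nothing is read from them. The median change of the 9 tested members was -0.21, beside -0.35 for all tested genes. After median-of-ratios scaling it was 0.16, beside -0.0029, so its sign depends on the scale. Across the 15 fits that were run, with the alternatives named in the processing notes, Mycn was lower in induced cells in 15, with changes of -3.57 to -3.05. Myc was lower in 15 too, at -1.76 to -1.06. Without uninduced replicate 2, induced replicate 1 or induced replicate 2 its change was -1.30, -1.26 and -1.37.

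Genes that work with the network but are no members were read from the fit across all genes. Their lists were chosen with earlier results of these data known, so the counts below describe the lists and are no independent test of them. For each count, the share of all tested genes was 10.2% lower and 1.29% higher at an adjusted p under 0.05, and 24.2% lower and 3.73% higher at an unadjusted p under 0.05. On the median-of-ratios scale these shares were 3.21% and 2.84% adjusted, and 11.3% and 10.6% unadjusted. Mga, a large scaffold protein that also pairs with Max, stood at 42.5, 26.3 and 25 TPM in uninduced and 15.5, 17.7 and 13.5 TPM in induced libraries. It fell, with a log2 change of -0.93 (SE of 0.26) and a limma adjusted p of 0.0463. Mga did not pass on the median-of-ratios scale (-0.54, adjusted p 0.255) or when any single library was left out (adjusted p 0.0555 to 0.137). Mlxip, the partner of Mlx also known as MondoA, differed by -0.62 (SE 0.30), short of the threshold (limma adjusted p 0.205), with 10.4 to 14.8 TPM in uninduced and 5.68 to 9.60 TPM in induced libraries. Mlxipl, the liver-type partner of Mlx, was listed at 0 in all 6 libraries.

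Some coactivators and corepressors of the network fell, where 10.2% of all tested genes did. Of 16 Myc coactivators 3 fell and 0 rose by limma (6 and 0 at an unadjusted p under 0.05, where 24.2% of all genes were lower), with a median change of -0.52, and -0.12 on the median-of-ratios scale. They were Ruvbl2 and Ruvbl1, the paired ATPases of the Tip60 complex, and Kat2a, the acetyltransferase Gcn5. Ruvbl2 averaged 54.6 ± 9.48 TPM without and 24.9 ± 1.43 TPM with induction (SD, n = 3 for each mean), and fell with a change of -1.09 (limma adjusted p 0.00922), or -0.70 on the median-of-ratios scale. Ruvbl1 and Kat2a fell too, with changes of -1.04 and -1.02 (limma adjusted p 0.0155 and 0.0210), or -0.65 and -0.63 on that scale. Of 18 genes of the Sin3 corepressor complex 5 fell and 0 rose (6 and 0 unadjusted), with a median of -0.43, and -0.043 on the median-of-ratios scale. Among those that fell were Ing2, a histone reader, and Rbbp7, a histone chaperone, with changes of -1.21 and -1.18 (limma adjusted p 0.0338 and 0.0102), or -0.84 and -0.78 on that scale. On the median-of-ratios scale 1 coactivator (Ruvbl2) and 2 Sin3 genes (Rbbp7 among them) passed, lower, where 3.21% of all genes did. Leaving out 1 library gave 1 to 3 genes for either list; Ruvbl1 was lost without uninduced replicates 1 or 2 or induced replicates 1 or 2 (adjusted p up to 0.0595), Kat2a without any library but uninduced replicate 3 (up to 0.0792), Ing2 without any but induced replicate 3 (up to 0.119) and Rbbp7 without uninduced replicate 2 (0.0513).

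Regulators of Myc protein stability had a median change of -0.76, and -0.40 on the median-of-ratios scale. Of 13 such genes 12 could be tested, 3 fell and 0 rose (5 and 0 unadjusted), beside 10.2% of all genes lower (24.2% unadjusted), and Skp2 was listed at 0 in all libraries. Plk1, a mitotic kinase that stabilises Myc proteins, fell with a change of -1.89, from a mean of 6.88 ± 2.30 TPM to one of 1.27 ± 1.26 TPM (SD over 3 libraries each; limma adjusted p 0.0295). Its size rests on the pseudocount (-2.69 with 0.1 and -0.92 with 5), and it was -1.61 on the median-of-ratios scale. Gsk3a, a kinase of the family that marks Myc for degradation, and Huwe1, a ubiquitin ligase for Myc, fell with changes of -1.11 and -0.74 (limma adjusted p 0.0126 and 0.0273), or -0.73 and -0.34 on that scale. Fbxw7, the ubiquitin ligase subunit that reads that mark, stood at 5.22 to 9.65 TPM in uninduced and 7.33 to 8.62 TPM in induced libraries. After median-of-ratios scaling limma called 0 of the 12 (2 lower at an unadjusted p under 0.05, beside 11.3% of all genes). Leaving out 1 library gave 1 to 3 calls: Plk1 was lost without uninduced replicates 1 or 2 or induced replicates 2 or 3 (adjusted p up to 0.112), Gsk3a without induced replicate 1 (0.0523) and Huwe1 without any but uninduced replicate 3 (up to 0.102).

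Genes known to be activated by Myc were examined by role, in 4 lists. In ribosome biogenesis 18 of 32 genes fell and 0 rose (26 and 0 unadjusted), beside 10.2% of all genes lower (24.2% unadjusted). The median change was -1.13 beside -0.35 for all genes. Grwd1, a ribosomal protein chaperone, fell with a change of -1.89, from a mean of 20.5 ± 8.33 TPM to one of 4.54 ± 1.09 TPM (SD over 3 libraries each; SE of the change 0.37, limma adjusted p 0.0120). Nolc1, a nucleolar chaperone, and Nip7, a factor for subunit assembly, fell with changes of -1.75 and -1.69 (limma adjusted p 0.00599 and 0.0123). With a pseudocount of 5 the changes of Grwd1 and Nip7 were -1.36 and -1.125. Among the abundant ones, nucleophosmin (Npm1) stood at 514, 533 and 433 TPM in uninduced and 207, 169 and 230.2 TPM in induced libraries (limma adjusted p 0.00212). After median-of-ratios scaling 11 passed, all lower, where 3.21% of all genes did, with a median of -0.76. Grwd1 was lost without uninduced replicates 1 or 2 or induced replicate 1 (adjusted p up to 0.0651) and Nip7 without uninduced replicate 2 (0.0564).

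In metabolism and transport 19 of 26 tested genes fell and 0 rose (22 and 0 unadjusted), against the same shares of all genes, with a median of -1.15. Shmt1, which feeds single-carbon units from serine into nucleotide synthesis, stood at 34.4, 18.4 and 21.5 TPM in uninduced and 2.80, 1.83 and 2.06 TPM in induced libraries. The groups lay far apart, with a change of -2.96 (SE 0.32, limma adjusted p 0.00115). Its size rests on the pseudocount (-3.39 with 0.1 and -2.01 with 5). Hk2, the first enzyme of glycolysis, and Cad, the first enzyme of pyrimidine synthesis, fell with changes of -2.42 and -2.34 (limma adjusted p 0.00491 and 0.00130). With a pseudocount of 5 the change of Hk2 was -1.44. The classical Myc target Odc1, the rate-limiting enzyme of polyamine synthesis, fell from between 60.7 and 77.1 TPM to between 29.3 and 35.9 TPM, a change of -1.06 (limma adjusted p 0.00836), or -0.67 on the median-of-ratios scale. Pkm, a pyruvate kinase, stood at 193 to 242 TPM in uninduced and 192 to 221 TPM in induced libraries (limma adjusted p 0.781), and its groups overlapped. After rescaling to nuclear protein-coding genes Pkm passed as higher (0.36, adjusted p 0.0291). After median-of-ratios scaling 13 passed, with a median of -0.765, and 12 did without uninduced replicate 1 or without uninduced replicate 2.

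Of 17 mitochondrial and chaperone targets 10 fell and 0 rose (14 and 0 unadjusted), with a median of -0.996. Pprc1, a coactivator of mitochondrial gene expression, C1qbp, a mitochondrial matrix protein, and Timm23, a channel of the inner membrane import machinery, fell with changes of -1.66, -1.52 and -1.44 (limma adjusted p 0.0207, 0.00433 and 0.0312). With a pseudocount of 5 the changes of Pprc1 and Timm23 were -1.15 and -1.04. The shares of all genes are again 10.2% lower, and 3.21% on the median-of-ratios scale. After median-of-ratios scaling 7 passed, with a median of -0.60, and Pprc1 (adjusted p 0.0813) and Timm23 (0.0918) did not pass. They were also lost when single libraries were left out, Pprc1 without any but uninduced replicate 2 (up to 0.0811) and Timm23 without any but induced replicate 3 (up to 0.119).

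In cell cycle and transcription 14 of 19 tested genes fell and 0 rose (17 and 0 unadjusted), where 10.2% of all genes were lower (24.2% unadjusted), with a median of -1.11, and all 19 were lower in every induced library than in any uninduced one, as were 28.2% of all tested genes. Mcm5 and Mcm4, subunits of the replicative helicase, fell with changes of -2.71 and -2.06 (limma adjusted p 0.000310 and 0.00152). Other subunits of this helicase were placed in the proliferation list below, so these lists are not separate readouts. Rcc1, the nucleotide exchange factor of Ran, fell with a change of -1.80 (limma adjusted p 0.0197), or -1.23 with a pseudocount of 5. After median-of-ratios scaling 8 passed, all lower, with a median of -0.74, and Rcc1 did not (adjusted p 0.0728). Without uninduced replicate 1, uninduced replicate 2 or induced replicate 1 the count was 8, and without induced replicate 2 or 3 it was 9. Rcc1 was lost without uninduced replicates 1 or 2 or induced replicates 1 or 3 (up to 0.0923).

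Genes known to be repressed by Myc gave 1 call. Of 13 such genes 9 could be tested, 1 rose and 0 fell (3 and 0 unadjusted), where 1.29% of all genes were higher (3.73% unadjusted), with a median change of 0.16, and 0.49 on the median-of-ratios scale. The difference from the activated lists was not tested. Ndrg2, a stress and differentiation gene, stood at 4.23, 3.34 and 3.08 TPM in uninduced and 14.7, 15.2 and 13.8 TPM in induced libraries. It rose by 1.78 (SE 0.28, limma adjusted p 0.00491), or by 1.20 with a pseudocount of 5. The cell cycle inhibitor Cdkn1b stood at 19.04, 25.5 and 14.9 TPM in uninduced and 38.3, 18.2 and 26.3 TPM in induced libraries, and the groups overlapped (limma adjusted p 0.402). Col1a2, a collagen chain, and Pdgfrb, a growth factor receptor, had negative changes of -1.09 and -0.55 and did not pass (limma adjusted p 0.230 and 0.509). After median-of-ratios scaling 2 genes passed, higher, where 2.84% of all genes did. The second was Gadd45a, a growth arrest gene, at 4.06 to 11.8 TPM in uninduced and 13.1 to 25.6 TPM in induced libraries (limma adjusted p 0.0425 on that scale).

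**Figure D4:**
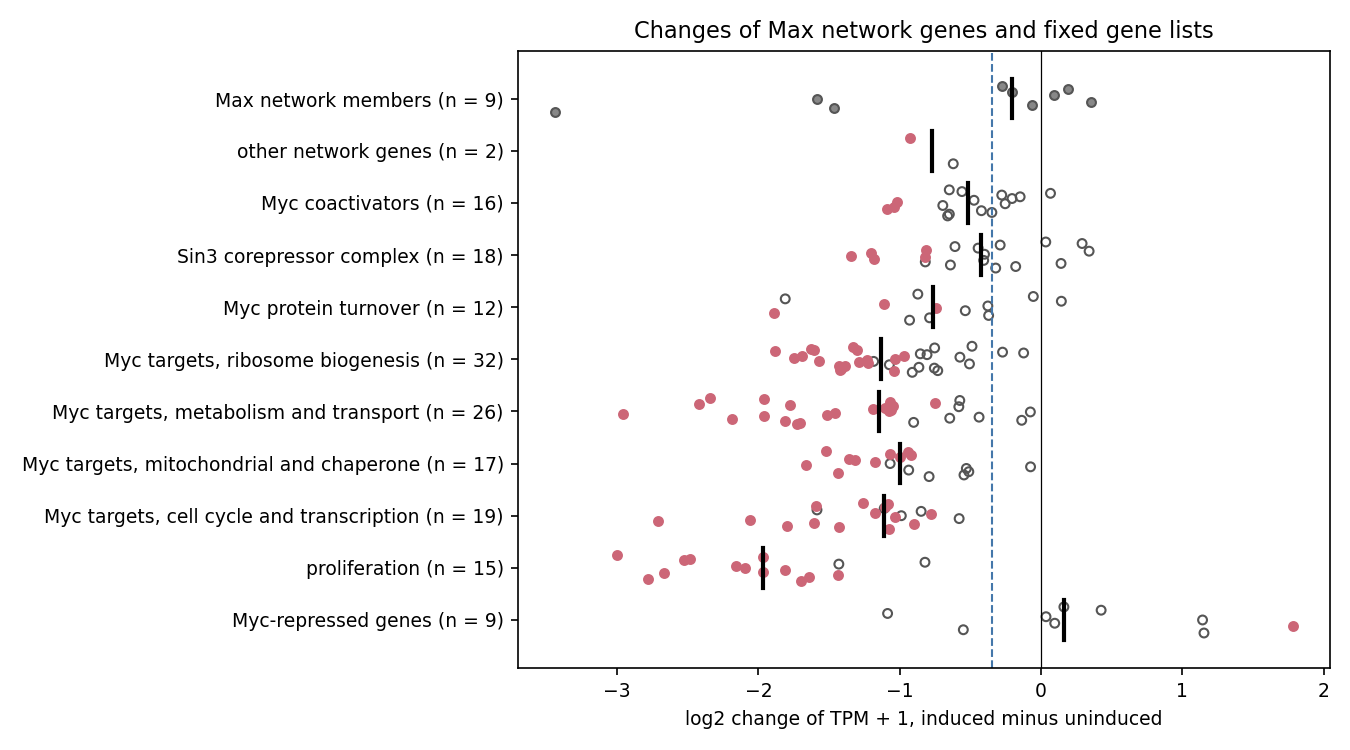
Log2 change of TPM + 1, induced minus uninduced (horizontal axis), for the tested genes of each list (1 circle per gene); red circles have a limma adjusted p under 0.05, grey circles are members, which carry no test, black bars are list medians and the dashed line is the median of all tested genes at -0.35. The 4 lists of Myc-activated genes have medians of -1.15 to -0.996, the proliferation list -1.97 and the list of Myc-repressed genes 0.16.

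Proliferation genes and erythroid transcripts moved with these changes. Of 15 proliferation genes 13 fell and 0 rose (14 and 0 unadjusted), where 10.2% of all genes were lower (24.2% unadjusted), with a median of -1.97 (-1.71 on the median-of-ratios scale), and their summed level was 582 to 697 TPM in uninduced and 139 to 184 TPM in induced libraries. Birc5, the mitotic survival factor survivin, Top2a, the topoisomerase of dividing cells, and Mki67 fell with changes of -3.00, -2.78 and -2.67 (limma adjusted p 0.00400, 0.000571 and 0.000255). With a pseudocount of 5 the change of Birc5 was -1.90. Of 9 erythroid markers 8 were tested and 6 called higher, where 1.29% of all tested genes were higher. The erythroid markers summed to 54.6 to 60.6 TPM in uninduced and 402 to 467 TPM in induced libraries. Among those called higher were the globin genes Hba-a1, Hba-a2, Hbb-bs and Hbb-bt, and Alas2, the first enzyme of haem synthesis in red cells. Epor, the erythropoietin receptor, lay lower in every induced library, with 3.42, 2.11 and 4.57 TPM in uninduced and 0, 0 and 1.45 TPM in induced libraries, but did not pass (-1.65, limma adjusted p 0.0638). Klf1, an erythroid transcription factor, overlapped between the groups. Of 8 myeloid markers 7 were tested and 1 was called higher, with sums of 264 to 317 and 256 to 300 TPM. Of 6 megakaryocyte markers 5 were tested, 2 called higher and 1 lower, with sums of 102 to 135 and 119 to 129 TPM. The shares of all tested genes were again 1.29% higher and 10.2% lower. The part of proliferation or of these cell types in the levels of Mycn, Myc and the target genes was not tested.

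Over the 6 libraries, the genes of mean 10 TPM or more whose log2(TPM + 1) was most like that of Mycn were Klk8, Hnrnpa3, Csrp1, Psmd1 and Mki67, with Pearson's r of 0.9969 to 0.9985. For Myc they were Ctse, Polr1b, Sash3, Pcnt and Fasn, with r of 0.9939 to 0.9969. Each is a description over 6 points that fall into the same 2 groups, among 6274 genes compared. Mki67 encodes the proliferation antigen Ki-67 and Polr1b a subunit of RNA polymerase I. Fasn, the fatty acid synthase, stood at 31.9, 50.02 and 32.9 TPM in uninduced and 6.58, 6.16 and 14.6 TPM in induced libraries. As for Myc, uninduced replicate 2 and induced replicate 3 were the highest of their groups.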

How the data were processed

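The authors deposited 1 table of gene-level TPM with a column per library. Per the submitters' processing notes, bcl2fastq, HISAT2 and StringTie were used with GRCm38; versions, filters, strand setting and annotation release are not given in the sources used here. Per the labels' protocols, libraries were made with a stranded total-RNA kit for very low input. The 60496 rows were summed per gene identifier, giving 55471. Groups came from library titles. TPM + 1 was log2-transformed, and the 13470 genes averaging 1 TPM or more were tested with limma 3.58.1 in R 4.3.3 (empirical Bayes, variance trend, two-sided, Benjamini-Hochberg, threshold 0.05). The step was checked on simulated data. Positions come from GENCODE M21 (GRCm38), whose release may differ from the authors', and promoters from RefSeq (GRCm38.p6).

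Members and gene lists (10 lists besides the members, written from general knowledge) were chosen with earlier results of these data known. Named are the members, Mga, Mlxip and Mlxipl, and per list the 3 largest called changes in each direction. Some genes that this rule or the marker lists include are not reported here. Npm1, Odc1, Pkm, Fbxw7, Cdkn1b, Gadd45a, Prelid1, Psmc3ip, Col1a2, Pdgfrb, Epor, Klf1, the other markers, Skp2 and Ranbp1 were named after their values were seen. Of the most similar genes, 5 each are given for Myc and Mycn. Alternatives were pseudocounts of 0.1 and 5, no filter, a minimum mean of 5 TPM, scaling by median of ratios, rescaling to nuclear protein-coding genes, no variance trend, the replicate number as a block, and the omission of each library in turn.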

Additional observations from a re-analysis of the deposited data

How the results depend on the processing

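Counts below are genes passing an adjusted p of 0.05 in limma. The total of 1549 genes (174 higher, 1375 lower) was 752 without the filter, 814 after median-of-ratios scaling (382 higher, 432 lower), 886 after rescaling to nuclear protein-coding genes (435 and 451) and 767 without the variance trend. With single libraries omitted it ranged from 573 to 1198. The 2 members became 1 without the filter and 1 to 2 with single libraries omitted. Median-of-ratios scaling and rescaling both gave 1 coactivator, 2 Sin3 genes, 0 turnover genes (2 lower at an unadjusted p under 0.05 in each), 8 cell cycle targets and 2 repressed genes, and the former gave 11 ribosome biogenesis targets. Without the filter there were 2 Sin3 genes and 8 cell cycle targets. Without the variance trend there were 1 coactivator, 1 Sin3 gene and 6 mitochondrial and chaperone targets. Leaving out a library gave 1 to 3 coactivators, Sin3 genes and turnover genes, 12 to 18 ribosome biogenesis and 12 to 18 metabolism targets, 7 to 8 mitochondrial and chaperone targets, 8 to 11 cell cycle targets and 11 to 13 proliferation genes. The cause of these differences was not tested. The difference in the ratio of Myc family to antagonist TPM, -2.82, ranged from -2.92 to -2.70.

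Same-numbered libraries showed no sign of pairing. The correlations of their deviations from the group means were 0.021, -0.015 and 0.017, and not every library correlated best with its own number. With 3 libraries per group these values cannot exclude a shared origin of same-numbered libraries. With the replicate block 902 genes passed (782 lower), with 2 members and 2 Sin3 genes. Among the called list genes named by rule, none changed direction in these fits, and the other called genes were not followed one by one. Of the changes of members under other settings, libraries left out aside, 15 moved by more than the spread between replicates and 56 did not. Depth is unknown, so low genes such as Mxd3 carry no detection limit.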
